A study of Mus musculus with 366 samples.

Results

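The aortas of F1 mice from the 3 inbred strains C57L/J, C58/J and C57BLKS/J, which belong to the C57 family or are close to it by descent, were compared with the aortas of C57BL/6J. The arrays were chosen by their strain label alone: 4 arrays of C57L/J, 4 of C58/J and 4 of C57BLKS/J were set, pooled and strain by strain, against 6 arrays of C57BL/6J. The series holds 348 further arrays, from 97 other strains. In the Ath-HMDP, a panel of inbred strains sensitized to atherosclerosis, females of each strain were crossed to C57BL/6J males carrying the human transgenes APOE-Leiden, a variant apolipoprotein E that slows the clearance of lipoprotein remnants, and CETP, the cholesteryl ester transfer protein. F1 pups with both transgenes were kept.

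All 18 mice were therefore F1 females that carried both transgenes. They were killed at 24 weeks of age, after 8 weeks on chow and 16 weeks on a Western diet. The mice of the 3 strains carried 1 set of chromosomes from the named strain and 1 from C57BL/6J, and the C57BL/6J mice carried C57BL/6J chromosomes on both sides, so the groups differ by a single dose of the other strain's genome and also by the strain of the mother. The C57BL/6J group had the same transgenes and diet, and no group without them was analysed here. The copy number and insertion sites of the transgenes were not given in the sources used here. The aorta was taken from the arch to the mid-abdomen and cleaned of the surrounding fat, and the RNA of each mouse was hybridized to its own array. The labels give no batch, date or time of day for any array. The deposited values are log2 intensities, so a difference is the log2 of a ratio of signals.

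C57BL/6J, C57L/J and C58/J are old strains that trace to a shared founding stock, and C57BLKS/J is known to hold chromosome segments of DBA/2J origin on a C57BL background. Such strains share long stretches of sequence and differ in others, and the H2 complex, which encodes the molecules that present antigen to T cells, is one that differs: C57BL/6J and C57L/J are known for the b haplotype, C58/J for k and C57BLKS/J for d. Haplotypes were not measured here. In the wall of a large artery, the cell types that carry the bulk of the RNA are smooth muscle, endothelium, adventitial fibroblasts and, in lesions, macrophages.

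The aortic smooth muscle genes Acta2 and Myh11 were measured in all 18 arrays but over wide ranges (8.88 to 12.72 and 4.71 to 10.78). The brown fat gene Ucp1 lay between 12.44 and 13.09 in every array and Adipoq between 11.73 and 12.66, so all libraries held fat RNA after the cleaning. The skeletal muscle gene Acta1 ran from 3.08 to 13.15, and the cartilage gene Acan and the T cell gene Cd3e stayed between 2.35 and 3.49. Of the other markers of these types, Col2a1 (2.46 to 2.88) and Cd3d (2.54 to 3.57) were also low. Comp of cartilage (2.87 to 5.33) and Cd2 of T cells (2.89 to 5.38) rose higher. The B cell genes Ms4a1 and Cd79a ran from 3.10 to 8.16 and from 3.93 to 5.01. Arrays of a strain correlated with each other at 0.953 to 0.995. The array C58/J 3 stood farthest apart. Its value of Mki67, a gene of dividing cells, was 7.27, against 2.84 to 4.28 in the other 17 arrays. C57L/J 3 was high in liver markers (Alb 8.34), with a hepatocyte list score 10.05 median absolute deviations above the series median. The reference array C57BL/6J 1 was also high in liver markers, at 3.31. In nerve markers 5 arrays were high, C58/J 4 the most, and C57BL/6J 1 (3.12) was among them. The lower quartile of the values in an array was 2.65 to 2.68 in 7 arrays (all 4 of C57BLKS/J, 1 of C58/J and 2 of C57BL/6J) and 2.60 to 2.64 in the other 11.

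The 3 strains pooled differed from C57BL/6J at 557 of 45141 probe sets, 116 higher and 441 lower (limma, adjusted p under 0.05). This is 1.23% of all probe sets, 0.257% higher and 0.977% lower. Taken alone, C57L/J differed at 149 probe sets (0.33%), of which 92 were higher (0.204%) and 57 lower (0.126%). C58/J differed at 1848 (4.09%), 460 higher (1.02%) and 1388 lower (3.07%), and C57BLKS/J at 371 (0.822%), 112 higher (0.248%) and 259 lower (0.574%). The 4 comparisons share the same 6 C57BL/6J arrays. After a further quantile normalization the pooled split was 125 higher and 243 lower, and that of C57BLKS/J was 111 higher and 100 lower. The counts also depended on single arrays: leaving out 1 array at a time, the pooled count ran from 191 (without C57BL/6J 4) to 1442 (without C58/J 4), and that of C58/J from 821 (without C58/J 1) to 3679 (without C58/J 4).

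**Figure D1:**
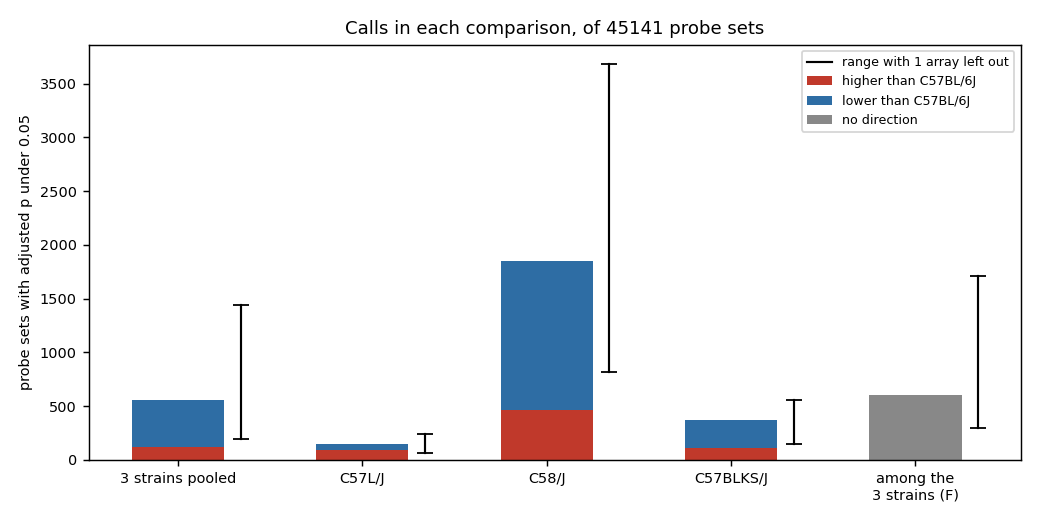
Probe sets called higher and lower (adjusted p under 0.05, of 45141) for the 3 strains pooled and for each strain against C57BL/6J, stacked, with the 602 calls of the F test among the 3 strains in grey and, as a line beside each bar, the range of the count when 1 array is left out. C58/J has the most calls (460 higher and 1388 lower) and C57L/J the fewest (92 higher and 57 lower), and the ranges of C58/J (821 to 3679) and of the pooled count (191 to 1442) are wide.

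The 3 strains also differed among themselves. The F test over the strains, which does not use the C57BL/6J values for the difference, called 602 probe sets (1.33%). Between pairs, C57L/J and C58/J differed at 222 probe sets (0.492%), C57L/J and C57BLKS/J at 338 (0.749%) and C58/J and C57BLKS/J at 400 (0.886%). Of the 557 pooled calls, 125 also differed among the strains (51 of those higher and 74 of those lower). A pooled difference could thus rest on 1 strain, and each gene below is given by strain. Where all 12 arrays lay on one side of all 6 C57BL/6J arrays, the difference was in every mouse. This held for 105 probe sets (0.233%), 18 higher (0.0399%) and 87 lower (0.193%), of which 86 were pooled calls.

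Wdfy1, which encodes an endosomal protein that takes part in Toll-like receptor signalling, had the largest difference without overlap between the 12 mice and C57BL/6J. On its probe set 1437358_PM_at (chromosome 1) the values were 7.13, 6.98, 7.03 and 7.32 in C57L/J, 6.62, 6.83, 6.42 and 6.39 in C58/J, and 6.89, 6.87, 6.49 and 6.22 in C57BLKS/J. In C57BL/6J the lowest was 4.49, the median 5.21 and the highest 5.51. Every mouse of the 3 strains was above every C57BL/6J mouse. The pooled difference was 1.67 (SE 0.15, 3.19-fold; adjusted p = 2.1e-05), and each strain passed alone, with 2.02 in C57L/J (adjusted p = 9.7e-05), 1.47 in C58/J (0.00077) and 1.53 in C57BLKS/J (0.0013). The strains did not pass the test among themselves (F test, adjusted p = 0.26). Among the means of all strains of the series, C57BL/6J ranked 5 from the lowest and C57L/J was the highest.

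The probe sets 1424749_PM_at and 1435588_PM_at of Wdfy1 also showed no overlap between the groups, with pooled differences of 1.25 (adjusted p = 6.5e-05) and 1.15 (0.00063), and these 3 were the largest differences of the 105. The remaining one, 1453426_PM_a_at, lay at 3.09 to 4.04 in the 3 strains and 3.23 to 3.78 in C57BL/6J and did not pass (0.30, adjusted p = 0.17). When the 12 mice were treated as 1 group with strain as a random block (consensus correlation within a strain 0.0824), 2 probe sets were called, both of Wdfy1 (1437358_PM_at, adjusted p = 0.0046, and 1424749_PM_at, 0.012).

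**Figure D2:**
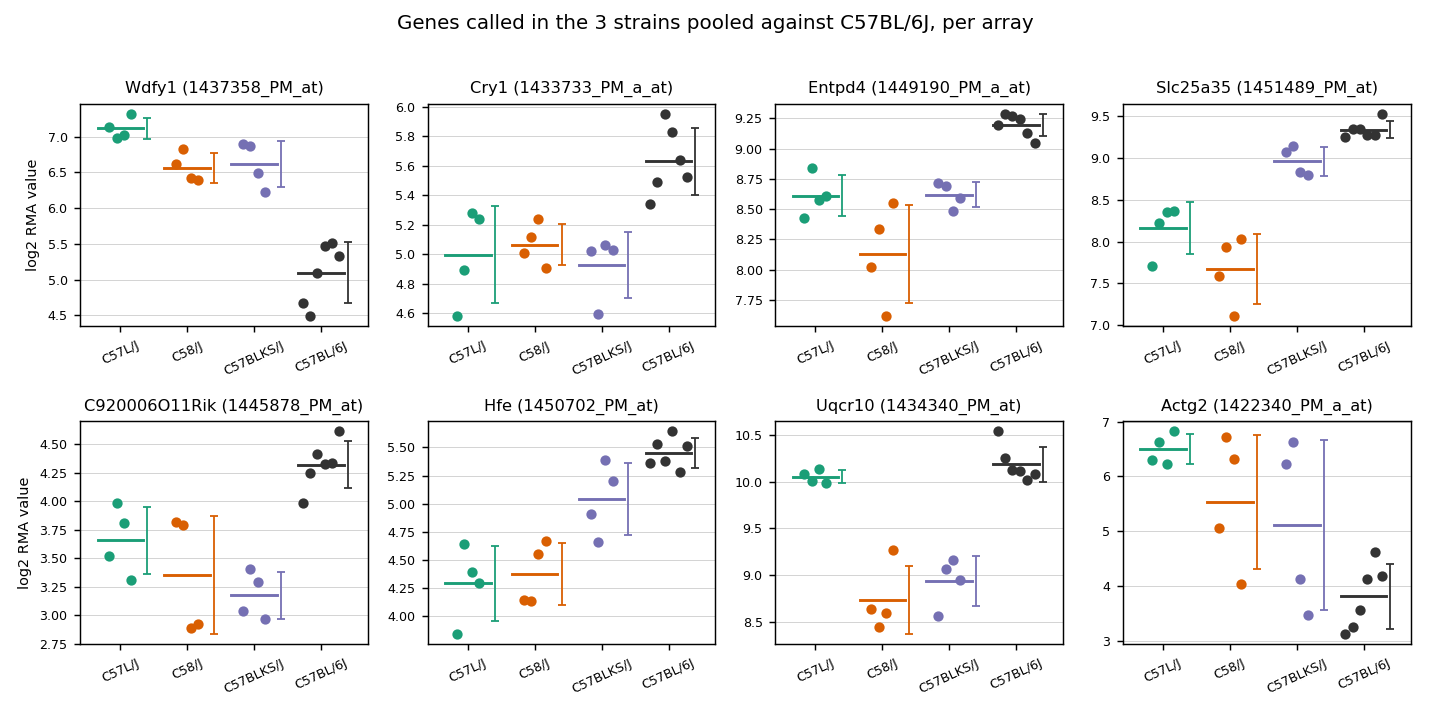
Log2 RMA values of 8 genes called in the pooled comparison. Each point is 1 mouse, the horizontal line the strain mean and the bar beside it the mean ± SD (n = 4, 4, 4 and 6). Wdfy1 (6.22 to 7.32 against 4.49 to 5.51), Cry1, Entpd4, Slc25a35 and C920006O11Rik do not overlap between the 3 strains and C57BL/6J, whereas Uqcr10 is low in C58/J and C57BLKS/J but not in C57L/J.

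Several genes were lower in the 3 strains. Entpd4, which encodes a nucleotide-hydrolysing enzyme of the Golgi and lysosome, had values of 8.42, 8.84, 8.58 and 8.61 in C57L/J, 8.02, 8.34, 7.61 and 8.55 in C58/J and 8.72, 8.69, 8.48 and 8.59 in C57BLKS/J, against 9.05 (lowest), 9.22 (median) and 9.29 (highest) in C57BL/6J. The groups did not overlap, and C58/J had the lowest mice. The pooled difference was -0.74 (SE 0.11; adjusted p = 0.0032). C58/J alone passed (-1.06, adjusted p = 0.00071), C57L/J (-0.58, adjusted p = 0.087) and C57BLKS/J (-0.57, 0.061) did not, and the strains did not pass the test among themselves (F test, adjusted p = 0.13).

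Slc25a35, a member of the mitochondrial carrier family, was 7.71, 8.22, 8.35 and 8.36 in C57L/J, 7.59, 7.94, 7.11 and 8.03 in C58/J, and 9.07, 9.14, 8.84 and 8.79 in C57BLKS/J. In C57BL/6J it lay at 9.25 to 9.52 with a median of 9.31. All 12 mice were below all 6, but C57BLKS/J was only just so. The pooled difference was -1.07 (SE 0.12; adjusted p = 0.00048), made up of -1.17 in C57L/J (0.0025), -1.67 in C58/J (4.4e-05) and -0.38 in C57BLKS/J (0.33), and the strains differed among themselves (F test, adjusted p = 0.003). C58/J and C57L/J had the lowest and second lowest means of all strains.

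C920006O11Rik, a gene named only by its clone, was 2.89 to 3.98 in the 12 mice and 3.98 to 4.61 in C57BL/6J on its probe set 1445878_PM_at, without overlap before rounding (-0.92, SE 0.15, adjusted p = 0.007). Hfe, which encodes the haemochromatosis protein that senses body iron, was 3.85, 4.64, 4.39 and 4.30 in C57L/J, 4.14, 4.13, 4.55 and 4.67 in C58/J, 4.91, 4.66, 5.39 and 5.20 in C57BLKS/J and 5.28 to 5.64 in C57BL/6J. One C57BLKS/J mouse reached into the C57BL/6J range, and C57L/J and C58/J did not. The pooled difference of Hfe was -0.88 (SE 0.12; adjusted p = 0.0032), with C57L/J (-1.16, adjusted p = 0.0028) and C58/J (-1.08, 0.0022) passing. Tfr2, the transferrin receptor that pairs with Hfe in iron sensing, was lower by -1.27 (adjusted p = 0.032) on 1 probe set and -1.14 (0.011) on the other, but overlapped between the groups (4.06 to 6.33 against 6.17 to 7.50 on the first). Its pooled call held in 11 of the 18 fits that left out 1 array, and was lost without C58/J 2, C57BLKS/J 4 or any of C57BL/6J 1, 2, 3, 4 and 6.

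Other pooled calls were carried by some of the strains. Uqcr10, a subunit of complex III of the respiratory chain, was 10.09, 10.01, 10.14 and 9.99 in C57L/J, within the C57BL/6J range of 10.02 to 10.54 but for 2 mice just below it, and was 8.64, 8.44, 8.60 and 9.27 in C58/J and 8.56, 9.07, 9.16 and 8.95 in C57BLKS/J. C58/J and C57BLKS/J did not overlap with C57BL/6J. The differences were -1.45 in C58/J (adjusted p = 7.7e-05) and -1.25 in C57BLKS/J (0.00061), against -0.13 in C57L/J (0.85), and the strains differed (F test, adjusted p = 0.00062). Another Uqcr10 probe set was lower by -0.59 pooled (adjusted p = 0.0066), and the brightest, at 11.62 to 12.22 in all mice, did not pass (-0.13, adjusted p = 0.38).

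Galc, the lysosomal galactosylceramidase, showed another division. It was 6.48, 6.52, 6.59 and 6.52 in C57L/J, 6.37, 6.25, 5.45 and 6.07 in C58/J, 7.46, 7.35, 7.59 and 7.56 in C57BLKS/J and 7.13 to 7.86 in C57BL/6J. C57L/J and C58/J were below every C57BL/6J mouse, and C57BLKS/J was within their range. C57L/J differed by -1.08 (SE 0.16; adjusted p = 0.0052) and C58/J by -1.58 (8.4e-05), and the other Galc probe sets, which lay under 3.15 in all mice, did not pass. Hal, the histidine ammonia-lyase, divided the strains in the same way but upwards: 4.42, 4.35, 4.26 and 3.49 in C57L/J and 4.55, 3.75, 3.71 and 5.16 in C58/J, against 2.52 to 2.67 in C57BLKS/J and 2.33 to 2.82 in C57BL/6J. Its differences were 1.62 in C57L/J (adjusted p = 0.0043), 1.78 in C58/J (0.00087) and 0.06 in C57BLKS/J (0.96).

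Cuedc1, which encodes a protein with a ubiquitin-binding CUE domain, was higher in C58/J (5.68, 6.12, 6.65 and 5.37) and C57BLKS/J (5.78, 5.79, 6.12 and 5.90) than in all C57BL/6J mice (3.52 to 4.77), while C57L/J (4.38 to 4.74) was in the C57BL/6J range. The differences were 1.79 (adjusted p = 0.00065), 1.74 (0.0017) and 0.43 (0.58). Alcam, a cell adhesion molecule of leukocytes and endothelium, had a pooled difference of 1.33 (SE 0.23; adjusted p = 0.012), and C58/J alone passed (1.88, adjusted p = 0.0038). The Alcam values were 4.77 to 6.48 in C58/J, 5.02 to 5.53 in C57L/J, 4.08 to 5.06 in C57BLKS/J and 3.27 to 4.45 in C57BL/6J, so that C57L/J and C58/J did not overlap with C57BL/6J.

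Among the other pooled calls of largest size, 2610507I01Rik was lower by -1.09 (SE 0.11; adjusted p = 5.9e-05), with C57L/J (-1.31) and C57BLKS/J (-1.51) passing and C58/J (-0.47, adjusted p = 0.07) not. Fbxo44, the substrate-recognition subunit of a ubiquitin ligase, was lower by -1.0 (0.0018), with C57L/J (-1.04) and C58/J (-1.48) passing. Ccn3 was higher by 1.81 pooled (SE 0.43; adjusted p = 0.048), a call that held in 5 of the 18 fits that left out 1 array. The pooled calls of Osbpl3 (higher), Cela1 and Dmrtc1a (both lower) held in 7, 7 and 4 of these fits. That of 4930481A15Rik (lower) held in all 18, but was lost without the 6 arrays high in markers of other organs (-1.09). Smim10l1 was lower by -0.91 on 1 probe set (adjusted p = 0.0066), and its other 3 probe sets did not pass and had pooled differences from -0.16 to 0.16. Of the 478 other probe sets of 249 called genes with several, 31 were called with the same sign, 339 had the same sign without a call, 108 had the opposite sign without a call and 0 were called in the opposite direction. Without the 6 arrays high in markers of other organs, with fewer mice in each group, the pooled calls of Hal (0.91, adjusted p = 0.05), Galc (-0.89, 0.1), Alcam (1.47, 0.063), Smim10l1 (-0.83, 0.056), C920006O11Rik (-1.04, 0.053) and Tfr2 (-1.30, 0.14) did not pass, with differences near those over all 18 arrays. Those of Wdfy1, Slc25a35, Uqcr10, Cuedc1, Fbxo44 and Hfe were kept.

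The H2 complex on chromosome 17 held the largest pooled difference and the largest difference in C57BLKS/J among called probe sets with 1 gene symbol. H2-Ea encodes the alpha chain of the class II molecule I-E, and the b haplotype is known to carry a deletion that silences it. On probe set 1422892_PM_s_at it was 3.13, 2.99, 2.94 and 2.98 in C57L/J and 2.85 to 3.30 in C57BL/6J, 6.95, 5.62, 6.04 and 7.44 in C58/J, and 8.04, 7.92, 8.65 and 8.23 in C57BLKS/J. C57L/J lay with C57BL/6J near the lower end of the array, and every C58/J and C57BLKS/J mouse was far above. C58/J was higher by 3.50 (SE 0.26; adjusted p = 1.8e-06) and C57BLKS/J by 5.20 (2.8e-09), while C57L/J differed by 0.01 (1.0). C57BLKS/J also exceeded C58/J by 1.70 (adjusted p = 0.0076). The 5 arrays of DBA/2J had a mean of 8.84. The pooled value of 2.90 is thus an average over strains that differ from each other. Another probe set gave 1.27 in C58/J (adjusted p = 0.024) and 1.39 in C57BLKS/J (0.038), and the last one, under 2.71 in all mice, did not pass in any strain.

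H2-D1, a classical class I gene, was read by 5 probe sets that did not move together. Probe set 1452544_PM_x_at was 8.81, 8.68, 8.62 and 8.60 in C57BLKS/J, 2.98 to 3.18 in C58/J, 2.48 to 2.71 in C57L/J and 2.38 to 2.94 in C57BL/6J. C57BLKS/J was higher by 6.11 (SE 0.10; adjusted p = 7.8e-17), and DBA/2J had a mean of 8.62. C58/J also passed, by a far smaller 0.53 (adjusted p = 0.0069). Probe set 1427651_PM_x_at was likewise higher in C57BLKS/J, by 5.36 (8.6e-13), and in C58/J by 0.575 (adjusted p = 0.048). Probe set 1450170_PM_x_at was instead high in C58/J (8.12, 7.22, 7.19 and 7.98, against 2.85 to 3.25 in C57BL/6J), by 4.63 (adjusted p = 2.7e-11), and not in C57BLKS/J (0.13, adjusted p = 0.79). The brightest probe set, 1451784_PM_x_at, lay at 9.44 to 11.03 in all mice and did not pass in any strain, nor did 1451934_PM_at, at 2.49 to 2.96. Class I genes are near copies of each other with many alleles, and probe sets whose names end in x can bind related transcripts, so these values are uncertain as levels of H2-D1 RNA. Signal from sequence differences under the probes and signal from RNA amount cannot be told apart.

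In the list of class I and peptide loading genes, read by 1 probe set per gene, 1 of 15 measured members passed in the pooled comparison, in the lower direction (228 of 17097 genes, 1.33%, passed lower and 37, 0.216%, higher). It was H2-Q10, a secreted class I gene, at 7.48, 7.89, 7.74 and 7.89 in C57BLKS/J against 8.56 to 8.80 in C57BL/6J. The value for C57BLKS/J alone was -0.93 (SE 0.12, adjusted p = 0.0017), and the strains differed among themselves (F test, adjusted p = 0.028). With the lower quartile of the array as a covariate, its pooled difference was -0.51. In the class II list, 1 of 11 members passed pooled, H2-Ea, and the median member differed by -0.06, beside -0.03 over all genes. In the lists of interferon-stimulated genes and interferon-induced GTPases, 0 of 19 and 0 of 12 measured members passed in the 4 comparisons (limma). In the pooled comparison 5 of the 19 had an unadjusted p under 0.05, as did 780 (higher) and 2188 (lower) of all 17097 genes. Of the interferon-inducible genes described below, Ifi202b is in neither list, and Xaf1 is among the 19 by its brighter probe set, which did not pass. The median of the 19 was -0.32 pooled (17 negative), -0.42 in C57L/J (17 negative), -0.14 in C58/J (14 negative) and -0.36 in C57BLKS/J (19 negative).

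**Figure D3:**
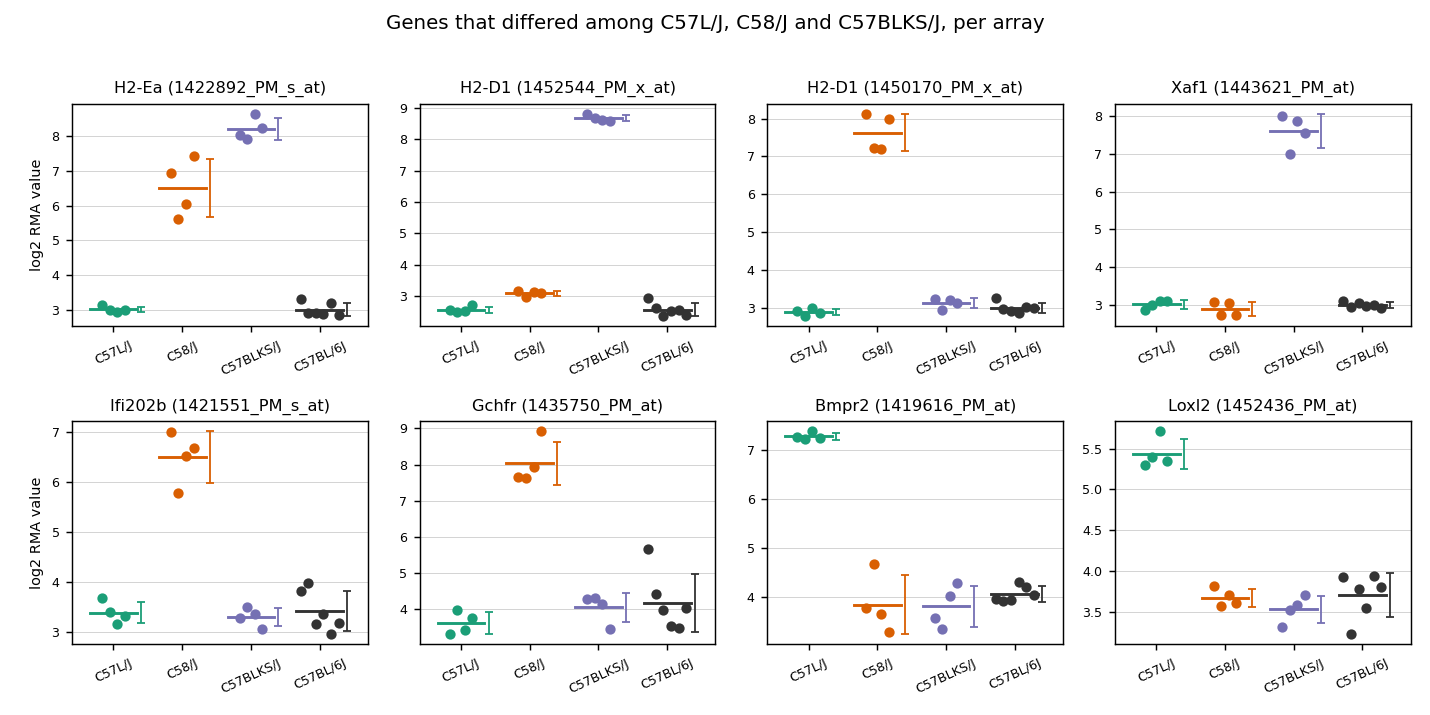
Log2 RMA values of genes that are high in 1 or 2 of the strains; each point is 1 mouse, the line the strain mean and the bar beside it the mean ± SD. H2-Ea is high in C58/J and C57BLKS/J, and the other genes shown stand out in a single strain.

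C57L/J differed from both other strains as well as from C57BL/6J at Bmpr2 and Loxl2. Bmpr2, which encodes a receptor for bone morphogenetic proteins that is mutated in heritable pulmonary hypertension, was 7.27, 7.22, 7.38 and 7.25 on probe set 1419616_PM_at in C57L/J. In the other groups it was 3.28 to 4.68 (C58/J), 3.35 to 4.29 (C57BLKS/J) and 3.92 to 4.30 (C57BL/6J). The difference from C57BL/6J was 3.22 (SE 0.21; adjusted p = 1.4e-06), and from C58/J and C57BLKS/J it was 3.43 (7.2e-07) and 3.47 (3.1e-07). The brighter probe set 1434310_PM_at lay at 8.68 to 9.47 in all mice and did not pass in C57L/J (0.35, adjusted p = 0.18), so the difference was seen on 1 of these probe sets.

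Loxl2, a lysyl oxidase that crosslinks collagen and elastin, was 5.30, 5.39, 5.71 and 5.34 in C57L/J, against 3.24 to 3.94 in the other 3 strains. It was higher than in C57BL/6J by 1.73 (SE 0.13; adjusted p = 3.2e-06), than in C58/J by 1.76 (5.1e-06) and than in C57BLKS/J by 1.90 (1.3e-06). Gdpd3, a lysophospholipase D, was 8.50, 8.30, 8.35 and 8.07 in C57L/J and 3.49 to 4.84 in C57BL/6J (4.45, SE 0.49, adjusted p = 0.00023). All C57BLKS/J mice were at 3.18 to 3.55, and C58/J was at 3.68 to 3.97 in 3 mice and at 7.11 in C58/J 3, the array that stood apart.

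Serpina1b, a member of the alpha-1-antitrypsin family made in liver, was 4.17, 6.59, 7.18 and 6.37 in C57L/J against 2.19 to 2.93 in C57BL/6J (3.48, SE 0.38, adjusted p = 0.00023), and Serpina12, the adipokine vaspin, was 2.96, 6.17, 5.19 and 5.33 against 2.40 to 2.63 (2.35, SE 0.38, adjusted p = 0.0085). Both were lowest in C57L/J 1. Alb was 2.46, 2.45, 8.34 and 3.66 in the same 4 arrays, and the part of liver RNA in these differences was not tested. Over the hepatocyte list, 0 of 18 measured members passed in C57L/J and the median difference was 0.27. Without the arrays high in markers of other organs, which leaves C57L/J 4 alone for the strain, Serpina1b differed by 3.84. That fit does not bear on liver RNA, because C57L/J 1 and 2, with the lowest Alb, were left out for nerve markers. The genes of the Serpina1 family are near copies, so the member read here is uncertain.

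Erdr1, a gene of the pseudoautosomal end of the X chromosome, was lower in C57L/J by -4.86 (SE 0.70; adjusted p = 0.0038), but the strain was divided. It was 8.00 in C57L/J 1 and 3.54, 3.24 and 3.03 in the other 3 mice, whereas all other mice lay between 8.24 and 10.20. The call held in all 18 fits that left out 1 array. Fbln5, an elastic fibre assembly protein, was 9.25, 9.57, 9.54 and 9.63 in C57L/J and 8.17 to 8.72 in C57BL/6J (1.08, SE 0.22, adjusted p = 0.042). This call held in 7 of 18 fits that left out 1 array and was lost without any of the 4 C57L/J arrays, C57BLKS/J 1 or 4, or C57BL/6J 1, 2, 3, 4 or 6. In the elastic fibre and collagen list it was the member of 20 that passed in C57L/J (0.257% of all genes passed higher), all 20 were positive and the median was 0.41.

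C58/J had the widest set of calls, most of them lower. Several genes of lipid metabolism were among them. Pnpla2, the adipose triglyceride lipase, was 3.48, 3.46, 3.2 and 3.86 in C58/J against 4.42 to 5.23 in C57BL/6J (-1.28, SE 0.23, adjusted p = 0.0068). Acaca, acetyl-CoA carboxylase, was 11.54, 11.71, 11.93 and 12.24 against 12.33 to 12.70 (-0.68, SE 0.13, adjusted p = 0.011). Neither gene overlapped between the groups, and both calls held in all 18 fits that left out 1 array. Elovl6, a fatty acid elongase, was 11.04, 11.04, 11.58 and 11.66 against 11.63 to 12.29 (-0.74, adjusted p = 0.019), a call lost without C58/J 1 or 2. Apoc3, an apolipoprotein of liver and gut, was 4.14, 3.65, 4.14 and 4.80 against 5.29 to 6.05 (-1.44, adjusted p = 0.015), a call lost without C58/J 2. Of the 18 measured hepatocyte genes, 17 were negative in C58/J. The hepatocyte list score was 3.76 to 4.34 in C58/J and 4.29 to 4.85 in C57BL/6J. The part of liver RNA in the Apoc3 difference was not tested.

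By list, in C58/J 2 of 21 cholesterol and fatty acid synthesis genes passed, both lower (median -0.41), as did 3 of 14 cholesterol efflux and lipoprotein genes (Nr1h3, Npc2 and Lipa), 2 of 12 general adipocyte genes (Pnpla2 and Retn) and 2 of 18 hepatocyte genes (Apoc3 and Mup3). None of their members passed higher. Over all genes 4.5% passed lower and 0.953% higher, and the median was -0.04. In the lists of fatty acid oxidation and oxidative phosphorylation, 1 of 18 (Acads) and 1 of 31 (Ndufs1) passed lower, under or near that background. The list scores of the C58/J arrays were uneven. C58/J 3 was lowest for efflux (7.8, others 8.4 to 8.6) and general adipocyte genes (8.7, others 9.3 to 9.6). It was also lowest for fatty acid oxidation (11.2, others 11.7) and oxidative phosphorylation (11.7, others 12.0). For synthesis it was highest (8.5, others 7.5 to 8.1). The Acads call was lost without C58/J 1, 2 or 3, and that of Ndufs1 held in 5 of the 18 fits that left out 1 array. Nr1h3, which encodes the oxysterol receptor LXR alpha, differed by -0.75 (adjusted p = 0.027) and the lysosomal acid lipase gene Lipa by -1.11 (0.024), and their calls held in 12 and 13 of the 18 fits that left out 1 array. Both were lost without C58/J 1, 2 or 3 and without C57BL/6J 3 or 4, and Nr1h3 also without C57BL/6J 2. With adipocyte marker scores in the model, C58/J had 929 calls. In bulk tissue, fewer cells of a type and less RNA per cell cannot be told apart.

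Outside the lipid lists, Rbm47, an RNA-binding protein that works with the apolipoprotein B editing enzyme, was 5.45, 5.52, 6.15 and 6.75 in C58/J and 7.27 to 8.36 in C57BL/6J (-1.84, SE 0.32, adjusted p = 0.0056). Dnajc22, a membrane-bound co-chaperone, was 2.40, 3.08, 3.47 and 3.43 against 4.46 to 5.05 (-1.61, SE 0.23, adjusted p = 0.0019). Neither overlapped, and C58/J had the lowest mean of all strains for both. Mtarc1, a mitochondrial reductase linked to liver fat, was 4.33, 3.69, 6.77 and 6.88, so C58/J fell into a low and a less low pair, both under the C57BL/6J range of 7.54 to 8.20 (-2.44, SE 0.50, adjusted p = 0.013), a call lost without C58/J 1.

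C58/J also had genes of high level. Ifi202b, an interferon-inducible DNA-binding protein and a candidate gene for lupus in mice, was 7.0, 5.78, 6.51 and 6.67 in C58/J, 3.17 to 3.67 in C57L/J, 3.08 to 3.50 in C57BLKS/J and 2.97 to 3.99 in C57BL/6J. The difference from C57BL/6J was 3.07 (SE 0.22; adjusted p = 1.5e-06), and the C58/J mean was the highest of all strains. Ifi202b belongs to a cluster of near-identical genes, so the copy read is uncertain. Gchfr, the feedback regulator of the enzyme that makes the nitric oxide synthase cofactor tetrahydrobiopterin, was 7.66, 7.64, 7.92 and 8.92 in C58/J and 3.47 to 5.65 in C57BL/6J (3.86, SE 0.36, adjusted p = 2.9e-05), and C57L/J and C57BLKS/J were at 3.31 to 4.29. It was the 1 call among the 20 measured nitric oxide and vasoactive genes in C58/J, where 0.953% of all genes passed higher. Ly6d, a surface antigen of keratinocytes and B cell precursors, was 6.18, 5.21, 10.74 and 6.71 against 3.31 to 5.26 (3.04, SE 0.74, adjusted p = 0.03). Its highest value was that of C58/J 3, and the call was lost without C57BL/6J 3, 4 or 5.

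In C57BLKS/J, genes outside the H2 complex also had large differences. Xaf1, an interferon-inducible factor that favours apoptosis, was 8.01, 6.99, 7.87 and 7.56 on probe set 1443621_PM_at and 2.72 to 3.11 in all 14 other mice (4.61, SE 0.15, adjusted p = 2.5e-12). The other probe set, 1443698_PM_at, lay at 5.56 to 8.34 in all mice and did not pass in C57BLKS/J (-0.07, adjusted p = 0.96). Cxcl14, a chemokine of epithelia and fat, was 9.84, 8.88, 8.87 and 9.15 in C57BLKS/J and 4.74 to 6.46 in C57BL/6J (3.65, SE 0.43, adjusted p = 0.00059), and its second probe set was higher by 1.12 (0.0026). It was the member of the 25 chemokine and cytokine genes that passed, beside 0.193% of all genes higher in C57BLKS/J. Aldh4a1, a mitochondrial enzyme of proline breakdown, was 6.94, 6.75, 6.66 and 6.80 against 5.28 to 5.87 (1.31, SE 0.13, adjusted p = 0.00014).

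The 5 DBA/2J arrays, which entered no test, had means of 7.70 for the Xaf1 probe set, 9.53 for Cxcl14, 6.71 for Aldh4a1 and 9.11 for Glo1, the glyoxalase gene. These means are near the C57BLKS/J means of 7.61, 9.19, 6.79 and 9.03. Glo1 was higher in C57BLKS/J by 0.54 (SE 0.10; adjusted p = 0.016), and its other 2 probe sets by 0.69 (0.04) and 0.84 (0.01). Abcd2, a peroxisomal transporter of very long chain fatty acids, did not sort in this way: it was 3.50, 4.32, 4.74 and 4.22 in C57BLKS/J and 5.15 to 6.21 in C57BL/6J (-1.43, SE 0.21, adjusted p = 0.0032), with a DBA/2J mean of 5.67. The other 3 Abcd2 probe sets did not pass. Zfp994, a zinc finger gene of chromosome 17, was 4.41, 4.14, 4.49 and 4.37 against 5.31 to 5.62 (-1.16, SE 0.12, adjusted p = 0.00015), and C57BL/6J had the highest mean of all strains.

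The lipid droplet gene Pnpla3, which responds to feeding, was 9.09, 9.13, 8.91 and 9.21 in C57BLKS/J and 5.83 to 8.25 in C57BL/6J (1.82, SE 0.36, adjusted p = 0.024), a call lost without C57BLKS/J 1, 3 or 4. The leukocyte lysosomal gene Laptm5 was 5.38, 5.28, 5.76 and 5.67 against 6.17 to 7.38 (-1.11, SE 0.22, adjusted p = 0.027), and the C57BLKS/J mean was the lowest of all strains. Its call held in 14 of 18 fits and was lost without C57BLKS/J 1, 2 or 4 or C57BL/6J 6. It was the 1 member of 23 macrophage genes that passed in C57BLKS/J, beside 0.76% of all genes lower, and 22 members were negative and the median was -0.48. In C57L/J 22 members were also negative (median -0.34), and in C58/J 3 were (median 0.27). The macrophage scores overlapped, at 5.57 to 6.29 in C57BLKS/J and 5.98 to 7.08 in C57BL/6J. The 7.08 was that of C57BL/6J 1, and the other C57BL/6J arrays reached 6.27.

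Genes of the circadian clock had most of their calls in C57BLKS/J. In the core loop, the activators Arntl (also Bmal1) and Clock drive the repressors Per and Cry, whose protein products switch the activators off, and the output genes Dbp and Tef follow the rhythm. Of 18 listed genes, 16 were measured. In C57BLKS/J 3 passed higher and 2 lower, where 0.193% and 0.76% of all genes passed higher and lower. An unadjusted p under 0.05 was found there for 11 of the 16, and for 640 (higher) and 1677 (lower) of all 17097 genes. In the pooled comparison and in C58/J 1 passed, Cry1, lower, and in C57L/J 0 passed (1 had an unadjusted p under 0.05).

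Arntl was 3.62, 3.55, 4.66 and 3.55 in C57BLKS/J, against a lowest of 4.76, a median of 5.49 and a highest of 5.86 in C57BL/6J. All 4 mice were under all 6. The difference was -1.60 (SE 0.28; adjusted p = 0.011), and C57BL/6J had the highest mean of all strains, with C57L/J (4.98 to 5.52) and C58/J (4.47 to 5.91) near it. Npas2, a relative of Clock, was 2.57 to 3.26 in C57BLKS/J and 3.22 to 4.96 in C57BL/6J and did not pass (-1.11, adjusted p = 0.18).

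The output genes lay the other way. Dbp was 7.60, 8.41, 7.65 and 7.39 in C57BLKS/J, and 4.80 (lowest), 5.75 (median) and 6.96 (highest) in C57BL/6J, without overlap (2.08, SE 0.38, adjusted p = 0.016). Ciart, a repressor of the Arntl and Clock complex, was 3.70, 6.58, 4.92 and 4.47 against 2.64 to 3.28 (2.04, SE 0.36, adjusted p = 0.015). Tef, chosen here after its values were seen, was 9.38, 9.72, 9.13 and 9.57 against 8.10 to 8.96 (1.02, SE 0.16, adjusted p = 0.0056). C57L/J and C58/J overlapped with C57BL/6J in all 3 genes. Per1 (1.07) and Per2 (1.35) did not pass in C57BLKS/J (adjusted p = 0.18 for both).

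Cry1 had a pattern of its own, lower in all 3 strains. It was 4.58, 4.89, 5.28 and 5.24 in C57L/J, 5.01, 5.12, 5.24 and 4.91 in C58/J and 5.02, 4.60, 5.06 and 5.03 in C57BLKS/J, against 5.34 (lowest), 5.59 (median) and 5.95 (highest) in C57BL/6J. No mouse of the 3 strains reached the C57BL/6J range, and C57BL/6J had the highest mean of all strains. The pooled difference was -0.63 (SE 0.11; adjusted p = 0.013), with -0.63 in C57L/J (0.087), -0.56 in C58/J (0.04) and -0.70 in C57BLKS/J (0.035), and no call among the strains (F test, adjusted p = 0.85). Without the arrays high in markers of other organs the pooled difference was -0.60 and did not pass (adjusted p = 0.079).

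The time of day at which each mouse was killed is not in the labels, and its part in the clock values was not tested. All 4 C57BLKS/J arrays were among the 7 with the higher lower quartile. Within those 7 arrays, which include 2 of C57BL/6J, the C57BLKS/J differences were 1.40 for Dbp (adjusted p = 0.19), 1.74 for Ciart (0.31) and -1.23 for Arntl (0.2), and those of Xaf1 (4.58, adjusted p = 0.0032) and of the H2-D1 probe set (5.90, 1.8e-05) still passed. The loss was not limited to clock genes. Of 19 named C57BLKS/J results, 16 were not called within those 7 arrays, among them Cxcl14, Pnpla3, Abcd2, Zfp994, Uqcr10, Laptm5 and Glo1. With the lower quartile as a covariate over all 18 arrays, the values were 1.77 for Dbp (adjusted p = 0.031), 2.01 for Ciart (0.027) and -1.31 for Arntl (0.017). Without the arrays high in markers of other organs, the C57BLKS/J calls of Dbp (2.155), Arntl (-1.54), Laptm5 (-0.91) and Glo1 (0.58) were lost. That of Ciart (2.49) was kept. DBA/2J had means of 7.85 for Dbp, 4.16 for Ciart and 3.65 for Arntl.

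**Figure D4:**
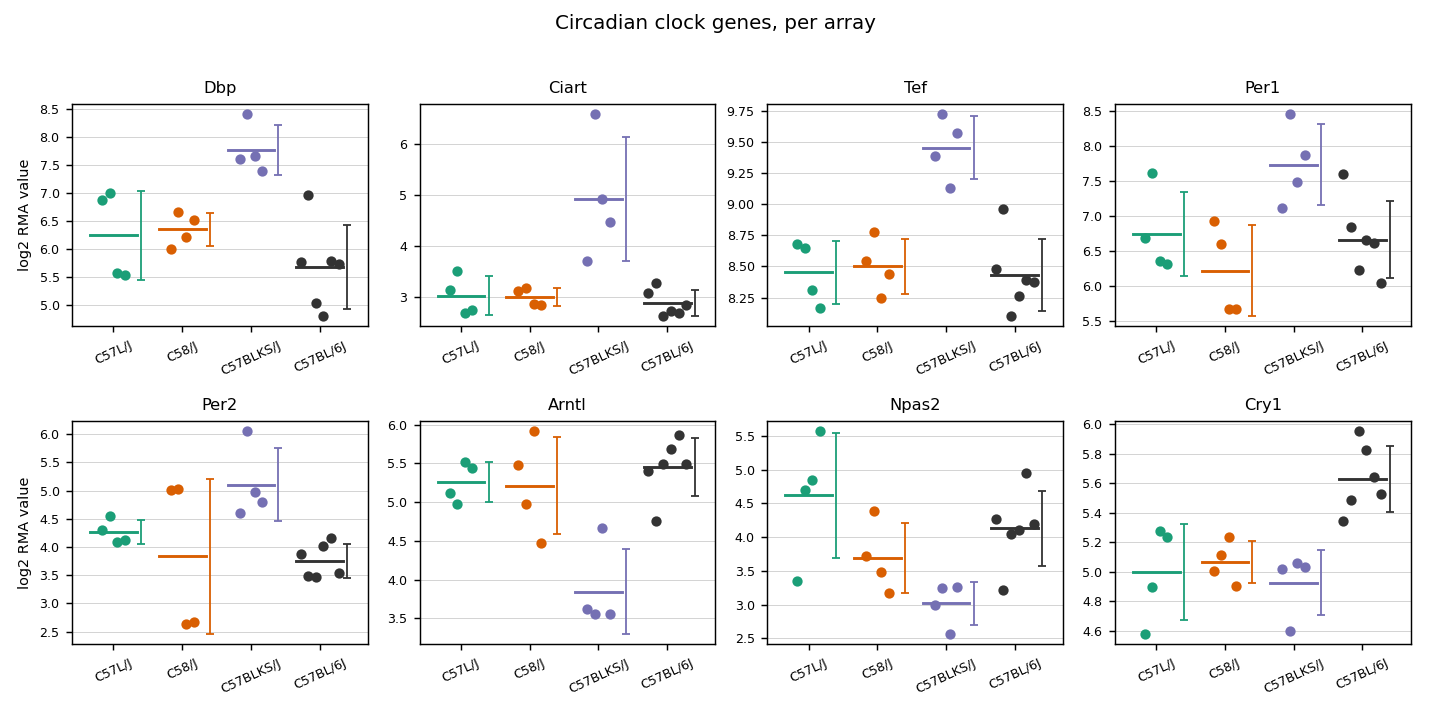
Log2 RMA values of 8 circadian clock genes; each point is 1 mouse, the line the strain mean and the bar beside it the mean ± SD (n = 4, 4, 4 and 6). In C57BLKS/J, Dbp (7.39 to 8.41), Ciart and Tef lie above C57BL/6J and Arntl (3.55 to 4.66) lies below it, and Cry1 lies below C57BL/6J in all 3 strains.

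Because 5 of these genes were called in C57BLKS/J, the promoters of the clock genes were searched for the E-box CACGTG, the element bound by the Arntl and Clock complex. The motif reads the same on both strands. It occurs in 2349 of 32851 RefSeq promoter windows (7.15%; GRCm38.p6, from 250 bases before a gene's start to 50 after it). By gene, it occurs in 8.09% of 27025 genes and in 5 of the 15 clock genes with an entry. Of the 5 genes called in C57BLKS/J, Ciart, Cry1 and Tef have it, and Dbp and Arntl do not have these letters in the window. The D-box TTATGNAA (N is any base) was also searched. It occurs in 3.99% of all genes and in 2 of the 15 clock genes, and in none of the 5 called. The 250 bases before the start of the 3 genes are shown 5′ to 3′ on the strand of the gene, with E-boxes in capitals. Ciart (chr3:95882229-95882478, minus strand) has 3, and Cry1 (chr10:85185055-85185304, minus strand) and the first window of Tef (chr15:81802423-81802672, plus strand) have 1 each, 60 and 127 bases before the start.
Ciart: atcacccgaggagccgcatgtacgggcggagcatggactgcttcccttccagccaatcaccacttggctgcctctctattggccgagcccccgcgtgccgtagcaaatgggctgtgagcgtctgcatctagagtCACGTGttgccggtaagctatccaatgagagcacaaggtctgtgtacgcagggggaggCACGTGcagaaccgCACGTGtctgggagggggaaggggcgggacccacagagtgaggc
Cry1: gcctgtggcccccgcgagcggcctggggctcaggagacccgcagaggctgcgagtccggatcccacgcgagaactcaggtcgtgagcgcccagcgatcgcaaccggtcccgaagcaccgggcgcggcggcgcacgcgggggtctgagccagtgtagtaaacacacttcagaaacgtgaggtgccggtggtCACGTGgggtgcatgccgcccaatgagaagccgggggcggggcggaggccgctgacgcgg
Tef: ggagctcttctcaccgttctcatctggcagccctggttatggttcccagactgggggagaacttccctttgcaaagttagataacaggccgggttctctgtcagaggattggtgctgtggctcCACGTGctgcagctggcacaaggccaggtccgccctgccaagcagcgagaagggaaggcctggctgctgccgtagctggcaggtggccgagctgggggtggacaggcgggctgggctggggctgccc
A match describes the sequence of the reference genome, and binding at these sites was not measured.

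Of 22 measured contractile genes, 20 had a positive pooled difference and 16 an unadjusted p under 0.05. Over all 17097 genes, 780 higher and 2188 lower had such a p. The median was 1.21, beside -0.03 over all genes, and Actg2 was the member that passed. Actg2, the gamma actin of smooth muscle, was 6.31, 6.62, 6.24 and 6.82 in C57L/J, 5.07, 6.73, 6.31 and 4.05 in C58/J and 6.22, 6.62, 4.13 and 3.47 in C57BLKS/J, against 3.14 to 4.63 in C57BL/6J. C57L/J was above all C57BL/6J mice, and 1 C58/J and 2 C57BLKS/J mice were within their range. The difference was 1.90 (SE 0.45; adjusted p = 0.0498), and the call held in 3 of 18 fits that left out 1 array. Myh11, the smooth muscle myosin heavy chain, was 9.69, 10.63, 10.39 and 10.78 in C57L/J against 4.71 to 9.16 in C57BL/6J and did not pass (3.13, adjusted p = 0.19). The list score was 8.68 to 9.04 in C57L/J, above all of C57BL/6J (6.38 to 8.21), and 6.86 to 9.08 and 7.27 to 8.81 in C58/J and C57BLKS/J.

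In the striated muscle list, of skeletal and heart muscle genes, 0 of 27 measured members passed, 26 were negative pooled and the median was -1.32. Their score was 4.53 to 10.34 in C57L/J, 6.65 to 8.71 in C58/J, 4.32 to 9.71 in C57BLKS/J and 6.92 to 9.88 in C57BL/6J. Acta1 ranged from 3.08 to 12.78 within C57L/J alone. The part of the muscle content of each sample in the smooth muscle values was not tested. Among endothelial genes 0 of 18 and among adventitial fibroblast genes 0 of 14 passed in any of the 4 comparisons, in which 0.146% (C57L/J) to 4.5% (C58/J) of all genes passed lower and 0.193% (C57BLKS/J) to 0.953% (C58/J) higher. Cd9, a tetraspanin in the list of foam cell genes, was 9.0 to 9.22 in C57L/J and 8.24 to 9.26 in C57BLKS/J against 7.90 to 8.72 in C57BL/6J (0.88 pooled, SE 0.17, adjusted p = 0.021). It was the member of 18 that passed pooled, beside 0.216% of all genes higher. In this list 0 of 18 passed higher in C57L/J and in C57BLKS/J, and 1 passed higher and 1 lower in C58/J. The pooled call of Cd9 was lost without C57BL/6J 2, 3 or 4, and without the arrays high in markers of other organs (0.915).

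**Figure D5:**
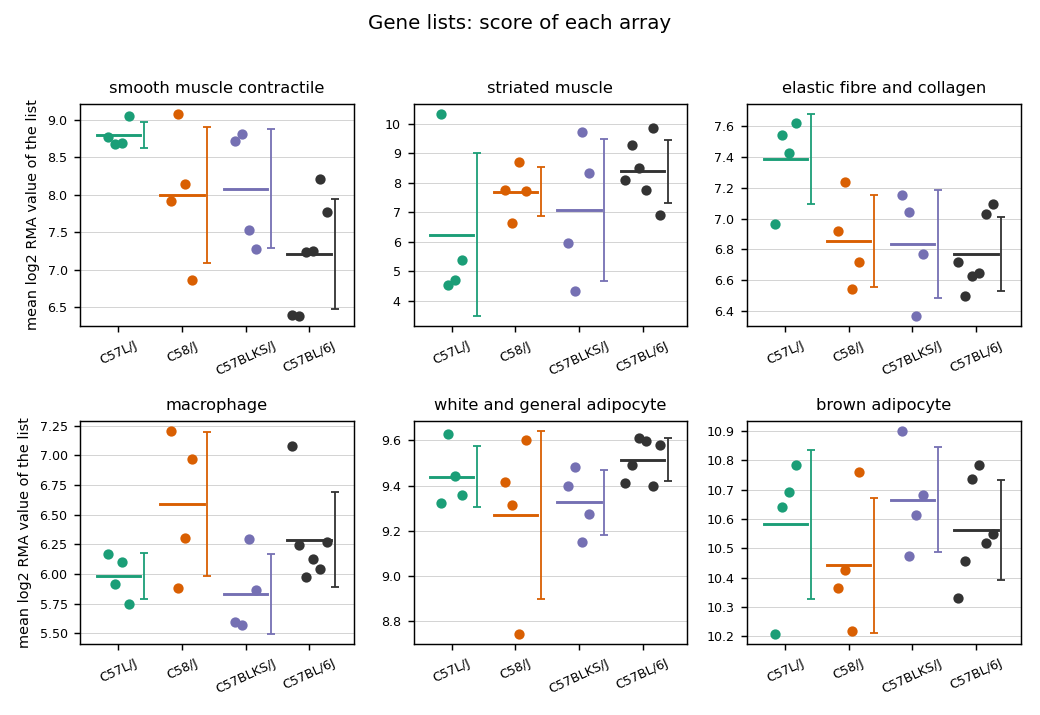
Mean log2 value of the measured members of gene lists in each array, by strain; each point is 1 mouse, the line the strain mean and the bar beside it the mean ± SD. The smooth muscle score of C57L/J (8.68 to 9.04) lies above that of C57BL/6J (6.38 to 8.21), and the striated muscle score spans 4.32 to 10.34 over the 18 arrays.

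Of 16 genes known to vary within or around the C57 family, 13 were measured and 3 passed pooled: H2-Ea and Ifi202b higher and Entpd4 lower, beside 0.216% of all genes higher and 1.33% lower. Glo1 passed in C57BLKS/J. Nnt, the mitochondrial transhydrogenase with a known deletion in C57BL/6J, was 8.22, 5.84, 6.02 and 6.28 in C57L/J, 6.74, 6.60, 7.08 and 5.57 in C58/J, 5.86, 5.04, 7.63 and 5.67 in C57BLKS/J and 4.93 to 6.53 in C57BL/6J. The groups overlapped, and it did not pass (0.59, SE 0.40, adjusted p = 0.55). The spread among mice was 1.10 (SD) in C57L/J. Gabra2, Ide, Fgfbp3, Nlrp12, Mlph, Apoa2 and Ltk did not pass in any of the 4 comparisons.

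Some called genes were neighbours. In the gene order of the GRCm38.p6 assembly, 8.14% of the 381 genes called pooled lay beside another called gene, against 4.35% of genes not called, and in C57BLKS/J 7.35% of 245 did, against 2.8%. Genes side by side share DNA, and these shares are given without a test. The densest window of 40 neighbouring genes for the pooled comparison was on chromosome 4, from Vps13d to Lzic, with 6 called genes (Rex2, Zfp982, Fbxo6, Fbxo44, Nmnat1 and Lzic), and in C58/J a window on the same stretch and one on chromosome 6 held 11 each. In C57BLKS/J the densest, on chromosome 11 from Lyrm7 to Zfp39, held 6 (Tnip1, Anxa6, Gm2a, Atox1, Gemin5 and Zfp39), and one on chromosome 17 held 5 (Rgmb, Zfp229, Zfp994, Zfp758 and Zfp945), of which 4 are zinc finger genes. Over all genes, 2.25% were called pooled, 7.36% in C58/J and 1.45% in C57BLKS/J. These windows are the fullest of a scan along the chromosomes, so their counts are high by choice and were not tested. The genes of these windows were taken by position and not by the size of their change.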

How the data were processed

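RNA of the whole aorta of 1 mouse was hybridized to each array, which is called HT_MG-430A in the labels and HT-MG_430 PM in the paper. The submitters' processing notes name GCOS and RMA as the authors' tools, and the log2 values were used as deposited. Software versions and the set of arrays normalized together are not given in the sources used here. Each column was matched to a strain by its label, with 0 columns unmapped. Array numbers within a strain follow accession order and only name the mice. The number of arrays limits the precision, and p-values measure the spread among mice of these strains.

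The 18 arrays were fitted with limma 3.58.1 in R 4.3.3 (with statmod 1.5.0), with 1 coefficient per strain and no filter on low values. The pooled value is the mean of the 3 strain coefficients minus that of C57BL/6J. Moderated tests were two-sided, a moderated F test compared the 3 strains, and all p-values were adjusted by the method of Benjamini and Hochberg across the whole array at a threshold of 0.05, past which a probe set is "called" or "passed". The genes named had 1 symbol and passed: the 12 highest and 12 lowest pooled, the 8 highest and 8 lowest per strain, the 8 smallest p among the strains, and up to 4 called members of each list, beside all measured genes known to vary in the C57 family. Not all genes so chosen are described. Values of a single probe set per gene, that with the highest mean over the series, were read for 543 of 622 list entries, and a list score is the mean of its members. Of all probe sets, 28898 have 1 symbol, 551 several and 15692 none. Gene order and promoters came from RefSeq (GRCm38.p6), and the deposited values name no assembly. The strains, genes and lists were chosen with earlier results of these data known. The fit was tested on simulated data.

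Alternatives were a spread estimated from every array of the series, probe sets above the median mean, array weights, quantile normalization, a trended and robust fit, adipocyte scores as covariates, leaving out arrays high in markers of other organs (over 3 median absolute deviations from the median of the series), 2 groups without strain or with strain as a random block, pooling without each strain, and leaving out each array. Chosen after seeing the data were the lower quartile of an array as a covariate, fits within the arrays on each side of its widest gap, and leaving out C58/J 3 and 4.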

Additional observations from a re-analysis of the deposited data

Results flagged for a closer look

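In 300 groups of arrays (75 named probe sets by 4 strains), a single array stood far from the other arrays of its strain in 21. Chance gives about 1 in 20 groups, or 15. In C57L/J, array 1 was high for Erdr1 (8.00, others 3.03 to 3.54) and low for Tfr2 (3.42, others 4.48 to 4.54), Mtarc1 (6.46, others 7.52 to 7.70) and Kcnk3 (8.29, others 8.83 to 8.93), and array 2 was low for Zfp994 (5.01, others 5.45 to 5.48). In C58/J, array 4 was high for Smim10l1 (5.92, others 5.38 to 5.41) and Fbp1 (3.56, others 2.60 to 2.76) and low for Cdkn1b (3.17, others 5.64 to 6.14) and Klf6 (7.15, others 8.17 to 8.24). Array 3 of C58/J was high for Gdpd3 (7.11, others 3.68 to 3.97) and low for 2610507I01Rik (5.49, others 6.03 to 6.14), and array 1 was high for Mgl2 (5.84, others 5.04 to 5.07). C58/J 3 is the array with raised Mki67, and C58/J 4 and C57L/J 1 are among the 5 arrays high in nerve markers.

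In C57BLKS/J, array 2 was high for Gadd45b (6.83, others 5.58 to 5.75) and Ndufs1 (11.72, others 11.58 to 11.59) and low for Cry1 (4.60, others 5.02 to 5.06). Array 3 of C57BLKS/J was high for Arntl (4.66, others 3.55 to 3.62) and low for Fbln5 (8.29, others 8.89 to 8.99), and array 4 was low for Gchfr (3.43, others 4.14 to 4.28). In C57BL/6J, array 1 was high for Gdpd3 (4.84, others 3.49 to 3.76) and low for Elovl6 (11.63, others 12.07 to 12.29), and array 6 was high for Slc25a35 (9.52, others 9.25 to 9.35).

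For 35 named probe sets the 3 strains differed among themselves in the F test. The smallest adjusted p-values were those of the H2-D1 probe sets (3.4e-16 and 1.2e-11), Xaf1 (4.6e-12), H2-Ea (3.8e-08), Bmpr2 (1.4e-07), Ifi202b (7.7e-07) and Loxl2 (8.4e-07). Next were Gchfr (1.1e-05), Aldh4a1 (1.5e-05), Cxcl14 (2.2e-05), Gdpd3 (0.00023), Serpina1b (0.00026) and Uqcr10 (0.00062). Adjusted p was 0.0011 for Galc, 0.0013 for Zfp994, 0.003 for Slc25a35, 0.0033 for Hal, 0.0036 for 2610507I01Rik, 0.0049 for Glo1, 0.0064 for Erdr1, 0.0066 for Serpina12 and 0.0074 for Ncan. It was 0.011 for Cuedc1, 0.014 for Fbp1, 0.017 for Abcd2, 0.02 for Laptm5, 0.024 for Ciart and Dnajc22, 0.028 for Arntl and H2-Q10, 0.032 for Fbxo44, 0.042 for Mgl2 and Apoc3, 0.045 for Pnpla3 and 0.046 for Rbm47.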

How the results depend on the processing

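No paired analysis was possible because the array numbers within a strain are in accession order and pair no mice. Called probe sets numbered 557 pooled, 149 in C57L/J, 1848 in C58/J, 371 in C57BLKS/J and 602 among the strains. In that order they were 2270, 719, 4699, 1310 and 3441 with the spread taken from all arrays of the series, and 2945, 1393, 5006, 855 and 3640 with array weights. After another quantile normalization they were 368 pooled and 211 in C57BLKS/J, and a trended and robust fit called 367 pooled. Adipocyte covariates left 929 in C58/J. Without the arrays high in markers of other organs (C57L/J 1, 2 and 3, C58/J 4, C57BLKS/J 1 and C57BL/6J 1) there were 59 pooled, 11 in C57L/J, 156 in C57BLKS/J and 372 among the strains, with fewer arrays in each group. As 2 groups, the pooled count was 71 with no term for strain and 2 with strain as a random block. Pooling without C57L/J gave 1218 and without C58/J 130.

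With 1 array left out, the counts were 191 (without C57BL/6J 4) to 1442 (without C58/J 4) pooled, 65 (without C57L/J 4) to 238 (without C58/J 3) in C57L/J, 821 (without C58/J 1) to 3679 (without C58/J 4) in C58/J, 148 (without C57BLKS/J 4) to 560 (without C58/J 3) in C57BLKS/J, and 300 (without C57L/J 4) to 1706 (without C58/J 4) among the strains. Of the settings chosen after seeing the data, the lower quartile as a covariate gave 871 pooled, 92 in C57L/J and 599 in C57BLKS/J. Leaving out C58/J 3 and 4 gave 1867, 303, 2952, 814 and 1831. Within the arrays of higher lower quartile 7 were called in C57BLKS/J, and within the others 3835 in C58/J. Pooled differences turned sign for Bmpr2 without C57L/J (-0.230), Ifi202b without C58/J (-0.067) and Xaf1 without C57BLKS/J (-0.043), genes high in the strain left out. Of the named calls, 63 were kept in each fit that left out 1 array, and the rest were lost in at least 1 of these fits. Only 27 were kept in every setting run for them, so most of the named calls were lost in at least 1 setting. Other causes were not tested. Low signals near the lower end of the array limit what differences can be read there.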

Other observations

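Among other genes called in C58/J, Cdkn1b, which encodes the cell cycle inhibitor p27, was 6.14, 5.64, 6.10 and 3.17 in C58/J and 2.92 to 3.34 in C57BL/6J (2.08, SE 0.45, adjusted p = 0.018). Gadd45b, a stress-response gene, was 7.41, 6.98, 7.55 and 4.31 in C58/J and 3.89 to 5.20 in C57BL/6J (1.90, SE 0.49, adjusted p = 0.039). Klf6, a zinc finger factor of the immediate-early list, was 8.20, 8.17, 8.24 and 7.15 against 6.43 to 7.56 (0.91, SE 0.22, adjusted p = 0.032). In all 3 genes the mice C58/J 1, 2 and 3 were above every C57BL/6J mouse and C58/J 4 was inside the C57BL/6J range. Klf6 was the 1 call among 19 measured immediate-early genes, where 0.953% of all genes passed higher. The calls of all 3 genes were lost without C58/J 1, 2 or 3, and they held in 15 (Cdkn1b), 9 (Gadd45b) and 12 (Klf6) of the 18 fits that left out 1 array. The others lost were without C57BL/6J 2, 3 or 4 for Klf6 and Gadd45b, and without C57BL/6J 6 or C57L/J 3 or 4 for Gadd45b.

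Mup3, a major urinary protein, was 3.25, 2.79, 5.08 and 6.39 in C58/J and 6.79 to 8.15 in C57BL/6J (-3.06, SE 0.71, adjusted p = 0.024). The major urinary proteins are a family of near copies, so the member read is uncertain. Mup3 is in the hepatocyte list, and the part of liver RNA in its difference was not tested. Fbp1, an enzyme of glucose synthesis, was 2.60, 2.76, 2.68 and 3.56 in C58/J and 3.88 to 5.46 in C57BL/6J (-1.83, SE 0.40, adjusted p = 0.017), with 4.41 to 6.24 in C57BLKS/J. Neither gene overlapped between C58/J and C57BL/6J. Retn, the adipokine resistin, was 9.57, 9.13, 8.03 and 9.90 in C58/J against 9.72 to 10.55 (-1.08, SE 0.26, adjusted p = 0.029), and Sod3, the extracellular superoxide dismutase, was 6.29, 6.66, 5.87 and 6.71 against 7.10 to 7.46 (-0.94, SE 0.23, adjusted p = 0.03). Sod3 was the 1 call among 29 NADPH and antioxidant genes and Kcnk3 (-0.80, adjusted p = 0.026), a potassium channel, the 1 call among 10 brown adipocyte genes, both in C58/J, where 4.5% of all genes passed lower. With 1 array left out, the calls of Mup3 and Fbp1 held in 15 of 18 fits, that of Kcnk3 in 14, Sod3 in 13 and Retn in 12. Mup3 was lost without C58/J 1 or 2 or C57BL/6J 3, and Fbp1 without C58/J 1, 2 or 3. Kcnk3 was lost without C58/J 2 or 3 or C57BL/6J 3 or 4, Sod3 without C58/J 1 or 3 or C57BL/6J 2, 3 or 4, and Retn without C58/J 2 or 3 or C57BL/6J 2, 3, 5 or 6.

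In C57BLKS/J, the brain proteoglycan gene Ncan was 6.60, 5.38, 5.58 and 6.10 against 3.39 to 4.89 in C57BL/6J (2.03, SE 0.41, adjusted p = 0.03), and the macrophage lectin gene Mgl2 was 3.78, 3.10, 4.46 and 4.35 against 4.77 to 5.62 (-1.15, SE 0.24, adjusted p = 0.038). The Ncan call held in 10 of 18 fits that left out 1 array and was lost without C57BLKS/J 1, 3 or 4 or C57BL/6J 1, 2, 3, 5 or 6. The Mgl2 call held in 9 and was lost without C57L/J 2 or 4, C57BLKS/J 1 or 2 or C57BL/6J 1, 3, 4, 5 or 6. Without the arrays high in markers of other organs, neither passed (Ncan 1.73, adjusted p = 0.19, and Mgl2 -1.0, adjusted p = 0.23). In none of the 4 comparisons was a member called of the lists of T cell (10 measured), B cell (10), erythroid (6), cartilage (14), Schwann cell and nerve (12), matrix metalloproteinase and inhibitor (16), cell cycle (20) and retroviral (10) genes in limma, beside the shares of all genes given above, and between 0 and 3 members of each had an unadjusted p under 0.05 in a comparison. Of all 17097 genes, 640 (C57BLKS/J) to 1025 (C58/J) higher and 1005 (C57L/J) to 2676 (C58/J) lower had such a p.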
